A study of Mus musculus with 7 samples.

Results

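The interferon-induced GTPases examined here were 9 genes of the guanylate-binding protein (GBP) and immunity-related GTPase (IRG) families, *Gbp2*, *Gbp3*, *Gbp5*, *Gbp7*, *Irgm1*, *Irgm2*, *Igtp*, *Iigp1* and *Tgtp1*. They were taken by name from the 25033 gene symbols in the count files, and all 9 were listed. The libraries came from lineage depleted (lin-) bone marrow cells, the progenitor-rich cells left after mature blood cells are removed, of 3 *HRP-2* wild type (*HRP-2*+/+, WT) and 4 *HRP-2* knockout (*HRP-2*-/-, KO) mice. All mice were 6 to 8 weeks old, and the labels name no treatment. The knockout mice carried the tm1b allele of *Hdgfl2* (older name *Hdgfrp2*) on the C57BL/6N strain in every cell of the body, so that the marrow's surroundings lacked HRP-2 as well. Knockout pups were reported to die more often before that age, so the mice sampled were survivors. HRP-2 is a chromatin reader and the paralog of LEDGF/p75, and the comparison asks what its loss changes in the transcripts of lin- cells.

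GBP and IRG proteins are large GTPases with which a cell defends itself against microbes in its own cytoplasm and vacuoles. Interferon gamma acts through JAK kinases on the GAS motif of target promoters, and type I interferon acts on the interferon-stimulated response element (ISRE), which interferon regulatory factors bind. GBPs coat vacuoles and bacteria and help to start the inflammasome. Among IRGs, Iigp1 and Tgtp1 are effectors that load onto parasite vacuoles, whereas Irgm1, Irgm2 and Igtp are regulators that sit on the cell's own membranes and keep the effectors inactive there. Irgm1 is also known for a part in keeping hematopoietic stem cells quiescent under interferon.

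The stretches of promoter that hold the interferon motifs are shown because they are what the members have in common in sequence and were not used to choose them. The RefSeq table of promoters (GRCm38.p6), with 250 bases before and 50 bases after each start, had an entry for 8 of the 9 members. It held none for *Iigp1*. The ISRE core was searched as GAAA, any 2 bases and GAAA, or on the other strand TTTC, any 2 bases and TTTC. The GAS motif was searched as TTC, any 3 bases and GAA, which reads the same on both strands. Each run below is 30 bases, 5′ to 3′ on the strand of its gene, with ISRE cores and GAS motifs in capitals.
Gbp2: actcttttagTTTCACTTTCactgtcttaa
Gbp3: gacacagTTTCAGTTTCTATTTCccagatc
Gbp5: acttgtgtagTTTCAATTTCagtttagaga
Gbp7: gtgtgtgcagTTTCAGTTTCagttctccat
Irgm1: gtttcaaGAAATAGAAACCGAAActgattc
Irgm2: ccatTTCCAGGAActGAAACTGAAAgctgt
Igtp: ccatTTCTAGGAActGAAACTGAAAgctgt
Tgtp1: ccatTTCCAGGAAtcGAAACTGAAAcctac

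These runs lie at chr3:142620594-142620623 for *Gbp2*, chr3:142559992-142560021 for *Gbp3*, chr3:142496759-142496788 for *Gbp5* and chr3:142530273-142530302 for *Gbp7*, all on the plus strand. The IRG runs lie at chr11:48871428-48871457 (minus strand) for *Irgm1*, chr11:58214898-58214927 (plus) for *Irgm2*, chr11:58199507-58199536 (plus) for *Igtp* and chr11:48992309-48992338 (minus) for *Tgtp1*. An ISRE core was present in all 8 members with a promoter, and in 3.99% of the 27025 genes in the table. It began between 24 and 77 bases before the start in 7 of them and 165 bases before it in *Gbp5*. These starts are those of the RefSeq table and differ in part from the ends of the gene spans given below, which are from another annotation. The runs of *Gbp5*, *Irgm1*, *Irgm2* and *Tgtp1* lie inside those spans, and that of *Gbp2* crosses the edge of its span. *Gbp3* and *Irgm1* each held 2 overlapping cores. A GAS motif was present in 5 of the 8, *Gbp5*, *Gbp7*, *Irgm2*, *Igtp* and *Tgtp1*, and in 9.55% of all genes. In *Irgm2*, *Igtp* and *Tgtp1* the GAS motif stood 2 bases before the ISRE core. The runs of *Igtp* and *Irgm2* were the same at 29 of 30 positions, and that of *Tgtp1* shared 24 with *Igtp* and 25 with *Irgm2*. In the other GBP and IRG genes of the table, 4 of 8 held an ISRE core and 2 of 8 a GAS motif. A match of letters is not a measured binding site.

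**Figure D1:**
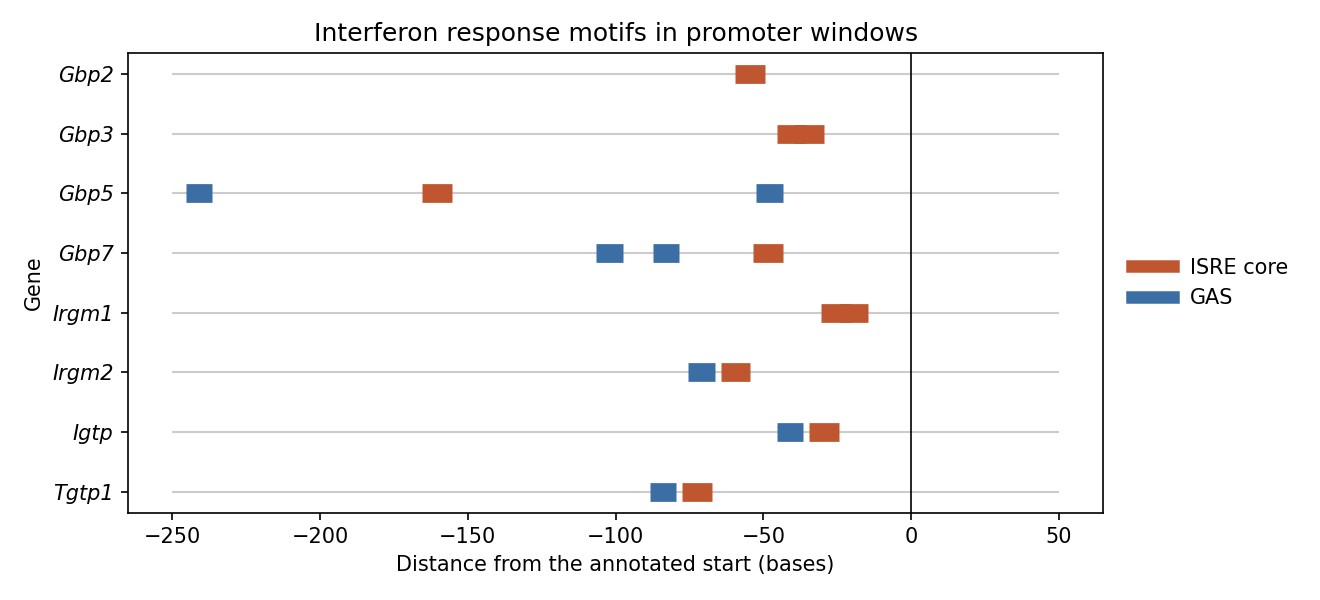
Positions of ISRE cores (orange) and GAS motifs (blue) in the promoter windows of 8 members, with the distance from the start annotated in the RefSeq table in bases on the horizontal axis and 1 gene per row. Every member shown holds an ISRE core, within 77 bases of the start in all but *Gbp5*, and in *Irgm2*, *Igtp* and *Tgtp1* a GAS motif stands next to it.

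The 4 GBP members lay in 1 cluster on chromosome 3 of GRCm38, on the plus strand, in the order *Gbp5* (142493978 to 142522344), *Gbp7* (142530342 to 142550149), *Gbp3* (142560026 to 142573209) and *Gbp2* (142620602 to 142638008). Of the IRG members, 4 lay on chromosome 11, at 48861968 to 48871683 for *Irgm1* and 48985327 to 48994172 for *Tgtp1*, both on the minus strand. The others there were on the plus strand, *Igtp* at 58199556 to 58207591 and *Irgm2* at 58199618 to 58222782. *Iigp1* lay on chromosome 18 from 60376027 to 60392634 on the plus strand. All are protein-coding genes of GENCODE M21. *Igtp* and *Irgm2* overlapped on the same strand and shared 162 exonic bases, and *Gbp7* shared 637 exonic bases with a pseudogene, *Gm43802*. Reads in shared bases could be lost as ambiguous. In the last 500 bases of the transcripts of *Gbp7*, *Igtp* and *Irgm2*, however, 0 of 426 stretches of 75 bases were found in another gene, and these libraries read the 3′ end.

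The libraries held between 3525665 and 5605158 reads on genes. Genotype was checked on *Hdgfl2*, which had 156 to 228 reads in the wild type and 2 to 13 in the knockout mice. The defining markers of progenitors (8 of 8, *Kit* and *Cd34* among them) were detected in every library, and so were markers of T, natural killer (NK), B and resident macrophage cells. The labelled cells were thus a mixture with some mature cells. The ribosomal RNA precursor *Rn45s* made up between 4.94% and 20.6% of counted reads. Knockout replicate 3 stood apart in having *Ddx3y*, a Y-linked gene, at 104.5 CPM and *Xist* at 0.561 CPM, against 229.0 to 302.8 CPM of *Xist* in the other 6 mice. By these genes the other 6 mice read as female and knockout replicate 3 as male, so that sex was not balanced between the genotypes. The fold change of each member is therefore also given without that mouse, while values of other genes and of marker lists are given with it. The labels give each library as a biological replicate and say nothing of litters or days.

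Levels are given as CPM, the reads of a gene scaled to its library's total with edgeR's TMM factors. Each transcript gives 1 fragment at its 3′ end in such libraries, so CPM was not divided by gene length. A floor of 3 reads came to between 0.561 and 0.840 CPM depending on the library, for counting error only. *Tgtp1* was the member below it, with 2 reads in knockout replicate 1, 1 read in knockout replicate 3 and none in the other 5 mice. It was therefore too low for a fold change. Of the 426 stretches of 75 bases in the last 500 bases of its transcript, all 426 were also found in the transcript of *Tgtp2*, its near-identical neighbour. For the other 8 members 0 of the 426 stretches were found in other genes, except 2 of *Gbp5*. *Tgtp2* itself had at most 3 reads in any mouse. A read from the 3′ end could not be assigned to either gene alone, so these counts say little on whether *Tgtp1* was expressed.

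The other 8 members all had at least 8 reads in every mouse and passed the filter on low counts. Their order by mean CPM over the 7 mice, both genotypes pooled, was *Gbp7*, *Igtp*, *Gbp3*, *Irgm2*, *Gbp2*, *Gbp5*, *Irgm1* and *Iigp1*. *Gbp7* was above *Igtp* in 7 of 7 mice, by 0.90 ± 0.25 (SD, n = 7) on the log2 scale within a mouse. *Igtp* over *Gbp3*, *Gbp3* over *Irgm2* and *Irgm2* over *Gbp2* each held in 6 of 7 mice. From *Gbp2* down to *Iigp1*, no gene was separated from the next lower one beyond their spread. The log2 ratio within a mouse was 0.89 ± 1.008 (SD, n = 7) for *Gbp2* over *Gbp5*, 0.13 ± 1.15 (SD, n = 7) for *Gbp5* over *Irgm1*, and 0.18 ± 0.86 (SD, n = 7) for *Irgm1* over *Iigp1*. The last genes stood in the opposite order by genotype: WT means were 8.39 CPM for *Iigp1*, 7.32 CPM for *Irgm1* and 5.27 CPM for *Gbp5*, and KO means were 3.57, 4.53 and 7.20 CPM. The leading genes, *Gbp7*, *Igtp* and *Gbp3*, together made up from 67.9% to 80.5% of the summed CPM of the 9 members.

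**Figure D2:**
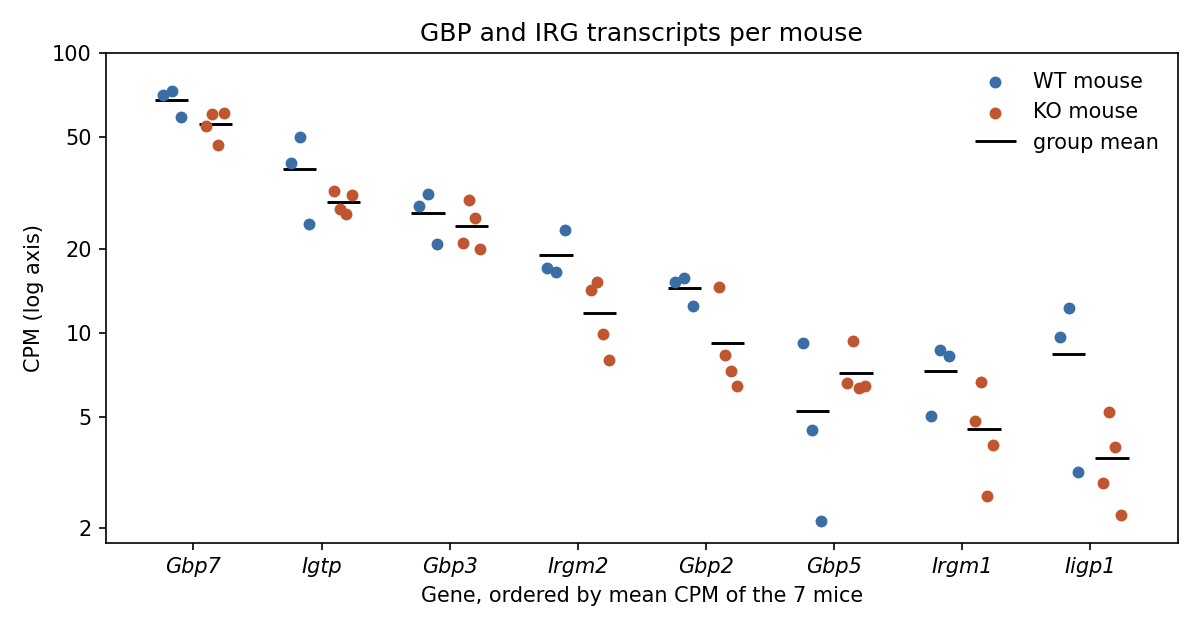
CPM of 8 members in each of 3 WT mice (blue) and 4 KO mice (orange) on a log axis, with genes ordered by mean level and a black bar at each group mean. *Irgm2* is the member whose genotypes do not overlap, and *Tgtp1*, with at most 2 reads in a mouse, is not drawn.

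No member passed the test between genotypes. In edgeR's quasi-likelihood fit over the 11265 genes that passed the filter, 0 of the 8 members had an adjusted p-value under 0.25, the false discovery rate used for these data in the study, or under 0.05. Over all genes 0.0178% were called at either threshold. All 8 members had the same adjusted p of 0.999 (edgeR, Benjamini-Hochberg over all genes). DESeq2 also called 0 of them, while over all genes it called 19 at 0.25 and 6 at 0.05. An unadjusted edgeR p under 0.05 was found for 2 of the 8, *Iigp1* and *Irgm2*, where 3.63% of all genes had such a p. Both had lower values in the knockout, a direction that 2.07% of all genes showed at that p. The log2 fold change, KO minus WT, was below 0 for 7 of the 8 and above 0 for *Gbp5*, where 50.2% of all genes were below 0. The median was −0.52 over the 8 members and −0.0014 over all genes tested. Without knockout replicate 3, 0 members were called, 7 of 8 were again below 0 and *Iigp1* alone had an unadjusted edgeR p under 0.05.

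The regulator IRGs are described first. *Irgm2* stood at 17.1, 16.5 and 23.4 CPM in wild type replicates 1 to 3 and at 14.2, 15.2, 9.90 and 7.97 CPM in knockout replicates 1 to 4. Every knockout value was under every wild type value, which was so for 2.79% of all genes tested. No member had all knockout values above the wild type ones, against 2.37% of all genes. The means were 19.0 ± 3.80 CPM (SD, n = 3) for WT and 11.8 ± 3.43 CPM (SD, n = 4) for KO. On the log2 scale this was a difference of −0.68 (standard error 0.28, 95% interval −1.27 to −0.093) with an unadjusted edgeR p of 0.0255. A two-sided exact permutation test on log2(CPM + 1) gave p = 0.0857, where the smallest p that the 35 splits of the mice allow is 0.0286. Without wild type replicate 3, which had the highest value, the log2 fold change was −0.51, and without knockout replicate 3 it was −0.60.

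*Igtp*, which lies beside *Irgm2* and has nearly the same promoter run, stood at 40.6, 50.1 and 24.4 CPM in the wild type mice and at 32.1, 27.6, 26.5 and 31.1 CPM in the knockout mice. The wild type values spanned the whole range of the knockout values, since wild type replicate 3 was the lowest of all 7 mice. Its log2 fold change was −0.39 with a standard error of 0.22 and a 95% interval of −0.85 to 0.079. Without wild type replicate 3 it was −0.63, without wild type replicate 2 it was −0.15, and without knockout replicate 3 it was −0.34. *Irgm1*, the regulator known from stem cells, stood at 5.05, 8.68 and 8.24 CPM in wild type and at 4.86, 6.65, 2.62 and 3.99 CPM in knockout mice. Of the knockout mice, 3 were below every wild type mouse and replicate 2 was inside the wild type range. For *Irgm1* the log2 fold change was −0.68, with a 95% interval from −1.58 to 0.21, on 14 to 32 reads per mouse. Without knockout replicate 3, the lowest mouse, it was −0.49.

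The effector *Iigp1* had the lowest fold change of the members. Its values were 9.65, 12.3 and 3.19 CPM in wild type and 2.92, 5.20, 3.92 and 2.24 CPM in knockout mice. Wild type replicates 1 and 2 were above all other mice, and wild type replicate 3 lay within the knockout range. Between genotypes the log2 fold change was −1.22 (standard error 0.48, 95% interval −2.22 to −0.22) with an unadjusted edgeR p of 0.0194, and the exact permutation test gave p = 0.143. The log2 value was −1.10 without wild type replicate 1, −0.85 without wild type replicate 2, −1.60 without wild type replicate 3 and −1.27 without knockout replicate 3. Reads numbered 9 to 44 per mouse.

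Among the GBPs, *Gbp2*, a GBP that coats vacuoles and bacteria, stood at 15.1, 15.7 and 12.5 CPM in wild type and at 14.6, 8.31, 7.29 and 6.48 CPM in knockout mice. The knockout replicate 1 value sat among the wild type values and the other 3 knockout mice were below them all. The means were 14.4 ± 1.71 CPM (SD, n = 3) and 9.16 ± 3.69 CPM (SD, n = 4), and the log2 fold change was −0.65 (95% interval −1.31 to 0.017) with an unadjusted edgeR p of 0.0554 and an exact permutation p of 0.0857. Without knockout replicate 1 it was −0.96, and without knockout replicate 3 it was −0.55.

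*Gbp7*, the most abundant member, which has been tied to the phagocyte oxidase and autophagy, stood at 70.9, 73.1 and 59.3 CPM in wild type and at 54.8, 60.7, 46.9 and 61.0 CPM in knockout mice. Its groups overlapped only through wild type replicate 3. With 223 to 323 reads per mouse it had the narrowest interval of the 8 members, −0.62 to 0.060 around a log2 fold change of −0.28, which was −0.20 without knockout replicate 3. *Gbp3* stood at 28.3, 31.4 and 20.7 CPM in wild type and at 20.99, 29.7, 25.8 and 19.9 CPM in knockout mice, which largely overlapped. Its log2 fold change was −0.15, with a 95% interval of −0.62 to 0.32. It was −0.025 without wild type replicate 2, −0.30 without wild type replicate 3 and −0.18 without knockout replicate 3.

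*Gbp5*, which promotes inflammasome assembly, was the member with the higher mean in knockout cells. It stood at 9.21, 4.48 and 2.13 CPM in wild type and at 6.61, 9.35, 6.35 and 6.48 CPM in knockout mice. The wild type mice differed among themselves by more than the genotypes did, with 42, 16 and 8 reads. The log2 fold change was 0.43 (standard error 0.45, 95% interval −0.51 to 1.36). It moved to 0.057 without wild type replicate 3 and to 1.13 without wild type replicate 1, and was 0.48 without knockout replicate 3.

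**Figure D3:**
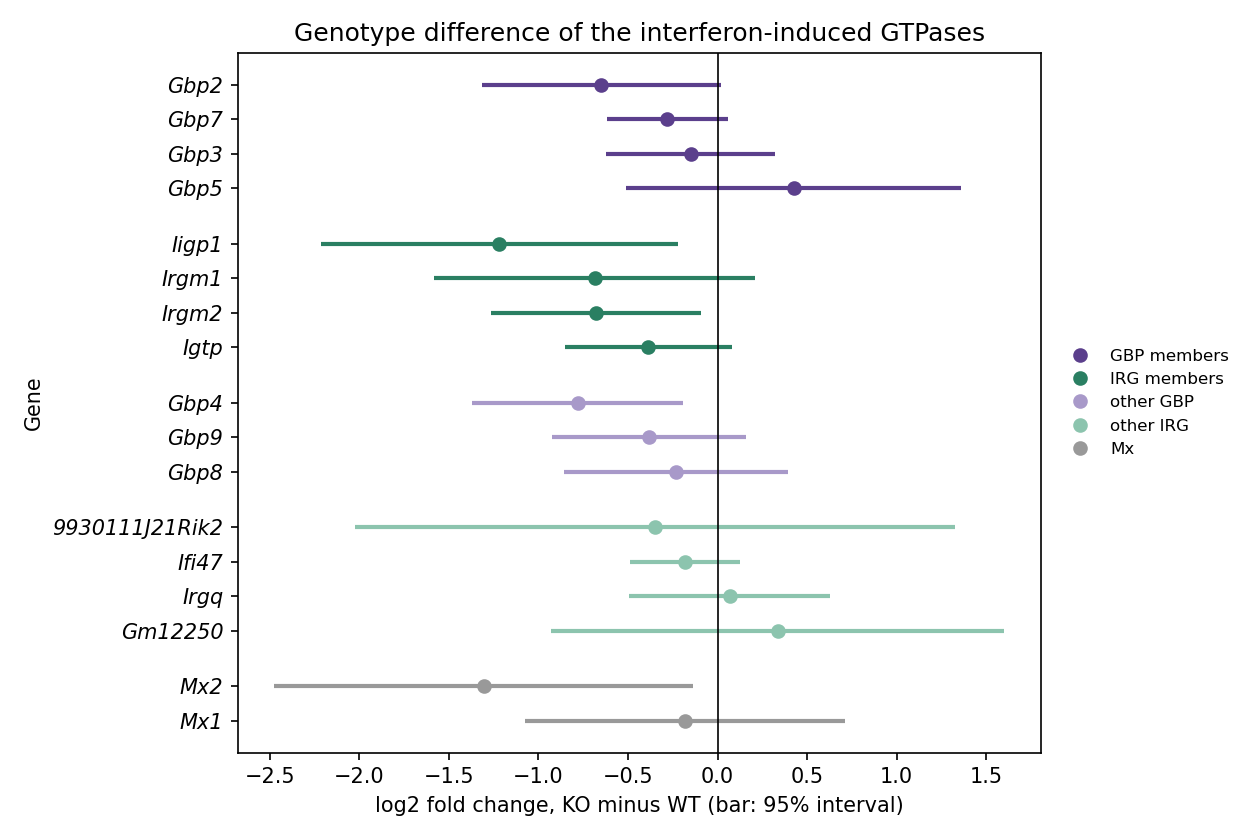
The log2 fold change between genotypes (KO minus WT, horizontal axis) of the 8 members and 9 related GTPase genes that passed the filter, with bars for the 95% interval. Intervals of *Irgm2* and *Iigp1* among the members, and of *Gbp4* and *Mx2* among the relatives, lie below 0 before adjustment over all genes, and none of the genes passed the adjusted test.

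Mice of one genotype also differed among themselves. Wild type replicate 2 was the highest mouse for 6 of the 8 members, and *Irgm2* (highest in wild type replicate 3) and *Gbp5* (highest in knockout replicate 2) were the exceptions. Knockout replicate 4 was the lowest mouse for 4 members, and knockout replicate 3 and wild type replicate 3 for 2 each. Wild type replicate 3 was thus the lowest mouse for *Gbp5* and *Igtp* and the highest for *Irgm2*. Across the 7 mice the highest value was 1.56 times the lowest for *Gbp7* and 5.49 times for *Iigp1*. The biological coefficient of variation estimated by edgeR ran from 15.7% for *Gbp7* to 38.9% for *Iigp1*, beside 21.3% in common for all genes.

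The summed CPM of the 4 GBP members was 123.5, 124.6 and 94.6 in wild type and 97.0, 108.1, 86.3 and 93.9 in knockout mice, so that the genotypes overlapped. For the 5 IRG members the sum was 72.4, 87.6 and 59.3 in wild type and 54.4, 54.7, 43.2 and 45.3 in knockout mice, and the genotypes did not overlap. That sum leaves out the other IRG genes described below, among them *Ifi47*, which was more abundant than any member. Those genes summed to 116.4 to 138.9 CPM in wild type and 108.2 to 125.1 CPM in knockout mice, which overlapped. For all 9 members the sum averaged 187.3 ± 30.1 CPM (SD, n = 3) over WT and 145.7 ± 14.4 CPM (SD, n = 4) over KO mice. The knockout mice ranged from 129.5 to 162.7 CPM and the lowest wild type mouse, replicate 3, stood at 153.8 CPM. These sums are descriptions and were not tested. In bulk RNA, fewer cells of a type and less RNA per cell cannot be told apart.

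**Figure D4:**
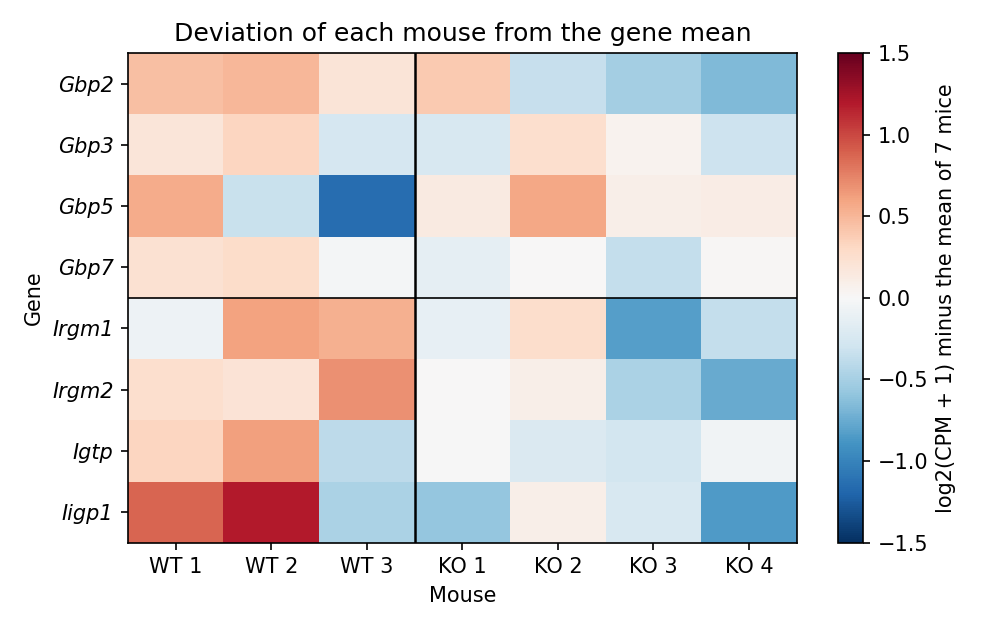
Deviation of each mouse (columns) from the mean of the 7 mice for 8 members (rows), in log2(CPM + 1), red above and blue below the mean. Wild type replicates 1 and 2 are above the mean for most members, wild type replicate 3 is mixed, and knockout replicates 3 and 4 are mostly below it.

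Other GBP and IRG genes were examined from a list by family. Of 8 further GBP names 7 were in the files, 3 were tested, and 0 passed the adjusted test. *Gbp4* stood at 31.3 ± 11.7 CPM (SD, n = 3) over WT mice and 18.2 ± 5.78 CPM (SD, n = 4) over KO mice, for a log2 difference of −0.78 (standard error 0.28, unadjusted edgeR p 0.0123, exact permutation p 0.0857). Its groups overlapped, since knockout replicate 2 at 24.9 CPM was above wild type replicate 1 at 23.9 CPM. *Gbp8* and *Gbp9* had log2 fold changes of −0.23 and −0.38, and *Gbp2b* was at 0 reads in all 7 mice. Of 11 further IRG names 4 were tested, 2 above and 2 below 0, and 0 passed. *Ifi47*, an IRG also called Irgd, was more abundant than any member, at 102.5 ± 12.1 CPM (SD, n = 3) over WT mice and 90.1 ± 9.29 CPM (SD, n = 4) over KO mice. Its log2 fold change was −0.18, with a 95% interval from −0.49 to 0.12. *Gm12250*, the gene of Irgb10, varied from 1.12 to 8.52 CPM with no separation by genotype, and *Irgq*, a divergent family member, had a log2 fold change of 0.07.

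*Mx1* and *Mx2* are antiviral dynamin-like GTPases. *Mx2* stood at 6.14, 3.36 and 4.52 CPM in wild type and at 1.55, 0.831, 2.24 and 2.99 CPM in knockout mice, which did not overlap, with a log2 fold change of −1.30 (unadjusted edgeR p = 0.0308, exact permutation p = 0.0571). *Mx1* had a log2 fold change of −0.18, and the difference between the genes was not tested. Inbred C57BL/6 strains are known to carry a defective *Mx1* gene.

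The receptors and signal proteins that act ahead of the GTPases were all tested, 14 of 14, with 3 above and 11 below 0, a median log2 fold change of −0.075 and 0 past the adjusted test. *Ifng*, which encodes interferon gamma, was itself detected, with 30 to 81 reads per mouse, at 11.3 ± 3.09 CPM (SD, n = 3) over WT mice and 11.1 ± 4.45 CPM (SD, n = 4) over KO mice. *Ifnar1*, a subunit of the type I interferon receptor, stood at 44.8, 51.5 and 60.0 CPM in wild type and 36.9, 42.6, 38.1 and 42.9 CPM in knockout mice, without overlap. Its log2 fold change was −0.38 with an adjusted edgeR p of 0.999. The most abundant genes of this list were *Irf8*, a myeloid interferon regulatory factor, *Ifngr1*, a subunit of the interferon gamma receptor, and *Jak1*, with log2 fold changes of −0.012, 0.10 and −0.10.

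Of 14 other interferon-induced genes 9 were tested, with 3 above and 6 below 0, a median of −0.079 and 0 past the adjusted test. *Psmb9*, a subunit of the immunoproteasome, stood at 314.8 ± 30.7 CPM (SD, n = 3) over WT mice and 246.9 ± 36.0 CPM (SD, n = 4) over KO mice, or −0.35 on the log2 scale (unadjusted edgeR p = 0.0219, exact permutation p = 0.0857). *Psmb8* of the same particle had −0.079, and *Tapbp*, which loads peptide onto MHC class I, had −0.0041. For the 16 partners of IRG and GBP targeting, among them autophagy and ubiquitin genes, the median was 0.090, with 11 above and 5 below 0. *Ubb*, a ubiquitin gene, had 0.13 and *Map1lc3b*, the autophagy protein LC3B, had 0.062.

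The inflammasome genes that GBPs act upon had 6 of 8 log2 fold changes above 0, with a median of 0.082 and 0 past the adjusted test. *Aim2*, a sensor of cytosolic DNA, stood at 28.6 ± 4.69 CPM (SD, n = 3) over WT mice and 43.7 ± 9.81 CPM (SD, n = 4) over KO mice, or 0.61 on the log2 scale (unadjusted edgeR p = 0.00955, exact permutation p = 0.0857). *Il1b* stood at 9.97 ± 2.90 CPM (SD, n = 3) over WT and 17.2 ± 6.65 CPM (SD, n = 4) over KO mice, or 0.78 on the log2 scale (unadjusted edgeR p = 0.0263, exact permutation p = 0.0857). *Pycard*, the adaptor, and *Casp1* had 0.13 and 0.063.

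**Figure D5:**
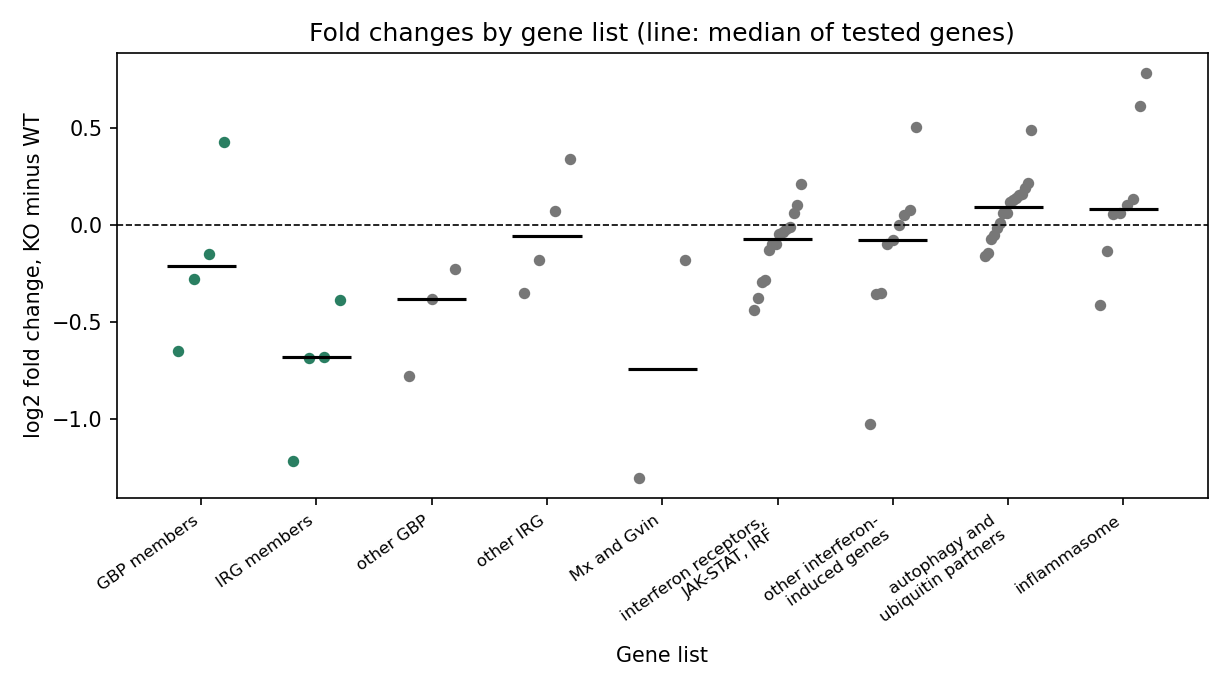
The log2 fold change between genotypes (KO minus WT, vertical axis) of every tested gene in 9 lists, members in green and other genes in grey, with a black line at the median of each list. The medians of the IRG members (−0.68) and of the GBP members (−0.22) lie below that of the receptor and signal list (−0.075). Those of the other GBP genes (−0.38) and of the Mx and Gvin list (−0.74) also lie below it, and that of the other IRG genes (−0.058) lies above it. The differences between lists were not tested.

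Cell type markers were summed by list, and none of their genes passed the adjusted test at either threshold. The resident macrophage list, 6 of 6 detected and none at 0, summed to 292.9 to 361.5 CPM in wild type and 204.2 to 256.7 CPM in knockout mice, without overlap. In that list 6 of 6 log2 fold changes were below 0, with a median of −0.58. The monocyte list, 6 of 6 detected and none at 0, summed to 2069 to 2106 CPM in wild type and 2208 to 3000 CPM in knockout mice, also without overlap but in the other direction. Of its log2 fold changes 5 of 6 were above 0, with a median of 0.17. This sum rests largely on *Ly6c2*, at 1179 to 1302 CPM in wild type and 1280 to 1965 CPM in knockout mice, which overlapped. *Csf1r* and *Ccr2* of the same list had log2 fold changes of 0.10 and −0.018. The neutrophil list, 6 of 6 detected, summed to 3592 to 6412 CPM in wild type and 5158 to 11269 CPM in knockout mice, where the highest was replicate 3, and 6 of 6 log2 fold changes were above 0 with a median of 0.72. For NK cells, a source of interferon gamma, 5 of 6 markers passed the filter on low counts, *Prf1* being the exception with 0 reads in 2 wild type mice, and the 6 summed to 410.8 to 448.2 CPM against 354.5 to 480.4 CPM. Of the 5 tested, 2 log2 fold changes were above 0 and 3 below, with a median of −0.073, and the lowest was that of *Klre1* at −1.05, named after its values were seen. The T cell list, of which 5 of 6 names matched and 5 were detected, summed to 133.6 to 157.9 CPM against 108.6 to 166.7 CPM. The part of these cells in the levels of the GTPases was not tested.

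Outside the lists, 5 genes followed the mean log2(CPM + 1) of the 9 members most closely over the 7 mice, among 11154 genes compared. Pearson's r was 0.970 for *Trp53bp2*, 0.954 for *Cog6*, 0.953 for *Atg13*, 0.945 for *H2-D1* and 0.933 for *Aste1*, and 0.932 for the next gene. *H2-D1* is an MHC class I heavy chain and *Atg13* an autophagy initiation protein. *H2-D1* stood at 1424, 1386 and 1216 CPM in wild type and 1286, 1326, 1093 and 1011 CPM in knockout mice. These are the largest values among many genes and few mice and are given as a description.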

How the data were processed

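3′ end RNA-seq libraries (500 ng of RNA, 75 bp single reads) of lin- cells from 3 wild type and 4 knockout mice were used. Per the methods, the authors aligned reads to GRCm38 with STAR 2.4.2a and quantified genes on Ensembl 84. They deposited raw counts of reads per gene symbol. The 5 tally rows were left out, and between 27.0% and 31.6% of reads were on no gene. The strand setting and the treatment of reads with several matches are not given in the sources used here. In R 4.3.3, edgeR 4.0.16 gave TMM factors, CPM, filterByExpr filtering and the robust quasi-likelihood test, with Benjamini-Hochberg adjustment over all genes and thresholds of 0.25 and 0.05. The standard error was the size of the fold change divided by the square root of F. Permutation tests were exact, two-sided, on the absolute difference of group means. P-values rest on the spread between single libraries, and replicates of either genotype always differed beyond sampling noise. Same-numbered mice did not deviate together (r from −0.21 to −0.025), so numbers were not used as pairs. DESeq2 1.42.0 was an alternative. The members, the gene lists and the rule for named genes (genes of a list with an unadjusted p under 0.05, copies of a member or the 3 most abundant, and the 5 outside genes most like the members) were chosen with earlier results of these data known. Values of some list genes that meet this rule are not reported here.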

Additional observations from a re-analysis of the deposited data

Results flagged for a closer look

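Among 43 values examined for a knockout mouse far from the other 3, by the ratio of its gap to the range, 3 were far enough. About 1 in 20 such values is expected by chance, here 2.15. *Gbp5* was at 9.35 CPM in knockout replicate 2, against 6.35 to 6.61 CPM in the other knockout mice, and wild type replicate 1 had 9.21 CPM. *Irgq* was at 21.9 CPM in knockout replicate 3, against 14.0 to 14.2 CPM in the others. *Ddx3y* was at 104.5 CPM in knockout replicate 3 and at or below 0.777 CPM in the other knockout mice. It was included because that mouse had already been seen to stand apart on it. Its flag was thus fixed in advance and cannot be weighed against the number expected by chance. Wild type groups hold 3 mice and were not examined in this way.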

How the results depend on the processing

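Counts of calls, the members' fold changes and their median were recomputed in 14 other fits (other scaling factors, no filter on low counts, DESeq2, a replicate block, no *Rn45s*, and 1 mouse left out in turn), and the summed CPM under 11 of these. Values of other genes, lists and markers and the permutation tests were not recomputed. No member was called in any of them (lowest adjusted p 0.818, for *Iigp1* by edgeR without a filter on low counts). The log2 fold changes kept their sign in all 14, *Gbp5* above 0 and the other 7 members below 0. Over the fits that leave out 1 mouse, the range was −0.96 to −0.52 for *Gbp2*, −0.82 to −0.51 for *Irgm2*, −1.60 to −0.85 for *Iigp1* and 0.057 to 1.13 for *Gbp5*. The median over the members ran from −0.57 to −0.38 without 1 mouse and from −0.53 to −0.45 in the other fits. An unadjusted p under 0.05 was found for 0 to 3 members, with 0 in the fit without knockout replicate 4. With the replicate number as a block, in which knockout replicate 4 has no partner and adds nothing, the log2 fold change was −0.54 for *Irgm2* and −0.94 for *Iigp1*, 0 members had an unadjusted p under 0.05, and 1 gene was called over all genes at either threshold, against 2 in the reported fit. Over all genes, no filter on low counts gave 41 genes at 0.25 and 19 at 0.05, and DESeq2 gave 19 and 6. Without 1 mouse the number ran from 2 to 7 at 0.25 and from 1 to 5 at 0.05, with 7 and 5 without wild type replicate 1, 4 and 4 without knockout replicate 1, and 1 at 0.05 without wild type replicate 3. The cause was not tested. Leaving out *Rn45s* lowers every total, and the summed CPM of the 9 members became 167.0 in knockout and 214.8 in wild type mice, both higher than with it. *Tgtp1*, under 3 reads in every mouse, could not be judged in any fit, since reads from its 3′ end cannot be told from those of *Tgtp2*. *Gbp5*, *Irgm1* and *Iigp1* had the fewest reads of the tested members and also the highest biological coefficients of variation, 35.6%, 33.8% and 38.9%.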
